A study of Mus musculus with 6 samples.

Results

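The genes described here encode the signalling chain that runs from the activating adaptors of fungal lectin receptors through the kinase SYK to the CARD9, BCL10 and MALT1 complex and the kinase TAK1. They were chosen by name: Fcer1g, Tyrobp, Syk, Vav1, Plcg2, Prkcd, Card9, Bcl10, Malt1 and Map3k7. All 10 are among the 54532 genes measured, and all 10 passed the filter on low values. RNA of cultured bone marrow neutrophils was sequenced from 3 wild type (WT) and 3 progranulin knockout (PGRN KO) cultures, both labelled C57BL/6J. Every culture was kept for 2 h and then given live Candida albicans for 6 h, at 1 fungus per cell by the labels, whereas a figure legend of the study gives another ratio. No culture without the fungus is part of the comparison, so the values are levels under infection. Neutrophils were taken from bone marrow with magnetic beads against Ly-6G, a surface protein of mature neutrophils. The knockout removes progranulin from every cell of the mouse, and the knockout mice and the WT mice came from different suppliers, so genotype and origin cannot be told apart. The number of mice behind a culture is not stated, and p-values then measure the spread between cultures, which may be technical.

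Dectin-type lectin receptors recognise sugars of the fungal cell wall. They signal through a tyrosine motif called ITAM, carried by the receptor itself or by a partner adaptor, and Src family kinases phosphorylate that motif so that SYK can dock. SYK activates phospholipase C and VAV proteins, protein kinase C delta then phosphorylates CARD9, and CARD9 gathers BCL10 and the protease MALT1 into a complex that engages TAK1, the IKK kinases and NF-kB. In neutrophils this route is known for reactive oxygen, cytokines and killing of fungi.

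Of the 10 chain genes, Syk, Vav1 and Malt1 were lower in PGRN KO and the other 7 did not pass the test. The mean FPKM (fragments scaled to gene length and to the size of the library, so a level per length) in PGRN KO was 0.585 times the WT mean for Malt1, 0.742 times for Vav1 and 0.814 times for Syk. By limma 0 chain genes were called higher, 0 were higher at an unadjusted p under 0.05, and voom called 0 higher. A call is an adjusted p under 0.05 by limma on log2(FPKM + 1), with Benjamini-Hochberg adjustment over the 14807 genes tested, and by that rule 9.95% of all genes tested were called lower and 7.94% higher. The chain genes are all well expressed, and among the 5136 genes whose mean FPKM was 5 or more, a level chosen after the values were seen, 20.1% were called lower and 33.3% in either direction. Against that share, 3 of 10 is not far from the background.

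**Figure D1:**
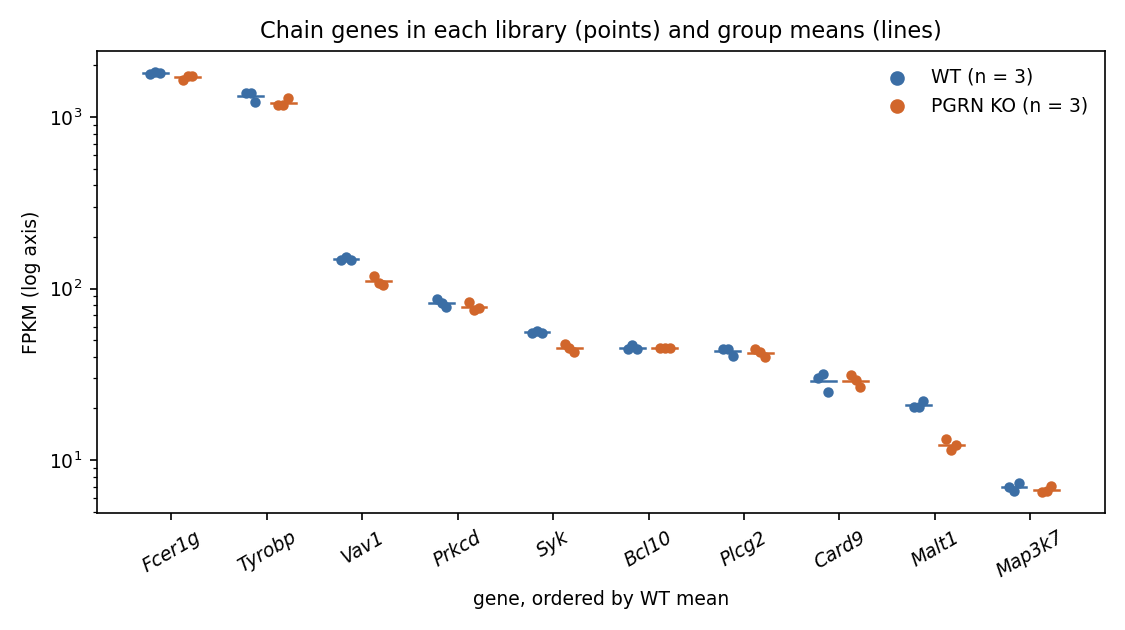
FPKM of the 10 chain genes on a log axis, each point 1 library and each line the mean of 3 WT or 3 PGRN KO libraries. Fcer1g and Tyrobp lie far above the other 8 genes, and the PGRN KO points of Vav1, Syk and Malt1 lie below all WT points.

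The targeted gene followed the labels. Grn, which encodes progranulin, had 168, 161 and 166 FPKM with WT genotype, against 0.242, 0.206 and 0.747 with PGRN KO (log2 fold change −6.91, SE 0.14, adjusted p = 1.05e-05). Each library held 17087344 to 18821091 fragments on genes. Neutrophil markers were at a high level in both genotypes, with a summed FPKM over 13 markers of 72633 to 77211 in WT, against 73992 to 84008 in PGRN KO. Most of that sum is S100a9, S100a8 and Ngp (WT means 31333, 17949 and 14226 FPKM). Of the 13, 2 were called higher in PGRN KO, Mmp9 (0.25) and Cd177 (0.23), and 2 lower, Csf3r (−0.16) and Mmp8 (−0.45), as log2 fold changes. Other cells' markers moved with genotype: all 5 promyelocyte markers were higher in PGRN KO, with a sum of 128.7 to 143.8 FPKM in WT, against 608.7 to 670.4 in PGRN KO, and 5 of 9 tested monocyte and macrophage markers were lower and 1 higher, with sums of 1025 to 1092 and 922.1 to 1090. All 4 tested B and plasma cell markers were higher (23.4 to 25.6 FPKM in WT, 67.2 to 82.7 in PGRN KO, with Pax5 at 0), as were 4 of 5 basophil and mast cell markers (2.04 to 2.47 and 11.0 to 12.5), 3 of 4 erythroid markers (1.01 to 3.14 and 5.46 to 6.36) and 1 of 4 T and NK cell markers (2.94 to 3.74 and 8.11 to 9.62, with Cd3e and Cd3g at 0), while 1 of 2 dendritic cell markers was lower (6.54 to 7.04 and 4.24 to 4.95). Some markers reached the filter of 0.1 FPKM only through PGRN KO. These were Fcer1a (called, means of 0.059 FPKM in WT and 0.631 in PGRN KO) and Cpa3 (not called, 0.013 and 0.352) of the basophil and mast cell list. Lck of the T and NK cell list (not called, 0.094 and 0.165) was another. The part of these other cells in the results was not tested.

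Where regulatory sequence could be matched, 8 of the 10 genes had at least 1 promoter window in the RefSeq table (mouse build GRCm38.p6), 10 windows of 250 bases before a start site in all. Malt1 and Tyrobp had none. The letters GAGGAA, a form of the site bound by PU.1, an ETS factor known for driving myeloid genes, occurred on either strand in 3 of the 10 windows and in 23.25% of all 32851 windows. The second window of Syk and the window of Vav1, genes both called lower, hold it close to the start, 9 and 11 bases before it. The first Syk window, nearer the annotated start of the gene, holds no match. Within the last 30 bases before the start, a distance chosen after the matches were seen, 2 of the 10 chain windows and 3.15% of all windows hold it. The last 30 bases are shown for these 2 windows because they hold the motif there, with the motif in capitals, both on the plus strand. The Syk window shown is its second one, which lies far inside the gene's span and overlaps an annotated exon.
Syk (chr13:52596852-52596881): tgtcttgcttgctgacactttGAGGAAaag
Vav1 (chr17:57279070-57279099): gacagttacagtcacagaaGAGGAAgtggt
The whole Vav1 window, the 250 bases before the gene, is shown as the longest stretch free of annotated exons next to a called chain gene, with the same motif in capitals.
Vav1 (chr17:57278850-57279099): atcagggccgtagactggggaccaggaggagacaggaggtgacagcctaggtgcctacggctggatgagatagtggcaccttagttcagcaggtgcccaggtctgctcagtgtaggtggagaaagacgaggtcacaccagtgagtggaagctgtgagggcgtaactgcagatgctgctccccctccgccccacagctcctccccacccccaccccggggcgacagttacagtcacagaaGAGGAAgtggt
Map3k7, which was not called, also holds the motif, on the minus strand and 173 bases before its start. Other motifs in the 10 windows were the GC box (GGGCGG) in 5 against 32.74% of all windows, the E-box (CACGTG) in 2 against 6.02% and the C/EBP motif (TTNNGCAA) in 2 against 9.56%. The AP-1 motif (TGANTCA) was in 0 of the 10 windows and in 6.75% of all. A match is a description of letters and says nothing about binding in these cells.

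At the top of the chain stand the adaptors. Fcer1g, the FcR gamma chain that carries the ITAM for Dectin-2, Mincle and MCL, had the highest level of the chain, with 1777, 1833 and 1797 FPKM in WT, against 1640, 1731 and 1740 in PGRN KO. All PGRN KO libraries were below all WT libraries, but the mean fell by 5.47% and Fcer1g was not called (log2 fold change −0.08, 95% interval −0.18 to 0.02, adjusted p = 0.253). Its direction turned to 0.04 with plain library totals and 0.06 with quantile normalization, also without a call. Tyrobp, which encodes the related adaptor DAP12, had 1378, 1383 and 1216 FPKM in WT, against 1177, 1173 and 1283 in PGRN KO. Here the groups overlapped, since the third WT library fell between the PGRN KO libraries (log2 fold change −0.13, 95% interval −0.29 to 0.03, adjusted p = 0.245). The bulk measurement cannot tell apart fewer cells of a type and less RNA per cell, for these genes and for all below.

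Syk, the tyrosine kinase that docks on phosphorylated ITAMs, had 55.2, 56.5 and 54.7 FPKM in WT, against 47.5, 45.0 and 42.9 in PGRN KO. Every PGRN KO value lay below every WT value, and the drop was larger than the spread between libraries (SD 0.938 in WT and 2.31 in PGRN KO, n = 3 each). The log2 fold change was −0.29 (SE 0.05, 95% interval −0.41 to −0.18, adjusted p = 0.00968). Of the 5136 genes at or above 5 FPKM, 16.1% had a lower log2 fold change than Syk. The call of Syk was the closest to the threshold among the 3 chain calls, with an adjusted p of 0.0475 when WT replicate 2 was left out. With plain library totals its log2 fold change was smaller, −0.17 (adjusted p = 0.0489 by limma), and with voom −0.18 (adjusted p = 0.0167).

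Among the effectors of SYK, Vav1 fell and Plcg2 and Prkcd did not pass the test. Vav1, a guanine nucleotide exchange factor for RAC that is phosphorylated by SYK, had 146, 153 and 146 FPKM in WT, against 118, 107 and 105 in PGRN KO. The groups were well apart, with a WT mean of 148 ± 4.01 and a PGRN KO mean of 110.0 ± 6.85 (SD, n = 3 each). Its log2 fold change was −0.43 (SE 0.05, 95% interval −0.56 to −0.30, adjusted p = 0.00361), and 8.08% of the 5136 genes had a lower one. Plcg2, phospholipase C gamma 2, which makes the second messengers that raise calcium and activate protein kinase C, had 44.1, 44.3 and 40.7 FPKM in WT, against 44.2, 42.7 and 40.1 in PGRN KO. The values of the genotypes were interleaved, and the interval of the log2 difference ran from −0.16 to 0.11 (adjusted p = 0.814). Prkcd, the protein kinase C that phosphorylates CARD9, had 86.8, 82.4 and 78.5 FPKM in WT, against 83.2, 74.7 and 77.0 in PGRN KO. These groups overlapped too, with an interval of −0.22 to 0.06 (adjusted p = 0.432).

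In the complex that CARD9 builds, Malt1 alone was called. Card9, the adaptor, had 30.1, 31.7 and 25.0 FPKM in WT, against 31.2, 29.2 and 26.7 in PGRN KO. Its WT libraries spread most of all chain genes, with a coefficient of variation of 12.1%, and its interval was accordingly wide, −0.23 to 0.24 on the log2 scale (adjusted p = 0.972). Bcl10, the bridge between CARD9 and MALT1, had 44.3, 46.8 and 44.2 FPKM in WT, against 45.0, 45.1 and 44.9 in PGRN KO, with an interval of −0.10 to 0.09 (adjusted p = 0.969). The PGRN KO values of Bcl10 lay within the range of the WT values. With plain library totals its log2 difference was 0.11, with an interval above 0 (0.017 to 0.21) and no call (adjusted p = 0.0947 over all genes by limma).

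Malt1, which encodes the paracaspase that cleaves inhibitors of NF-kB signalling, had 20.5, 20.4 and 22.2 FPKM in WT, against 13.2, 11.4 and 12.3 in PGRN KO. The highest PGRN KO value was far below the lowest WT value. The 3 WT libraries held 12539 fragments of Malt1 and the 3 PGRN KO libraries 8036. The log2 fold change of −0.73 (SE 0.07, 95% interval −0.89 to −0.57, adjusted p = 0.00118) was the largest of the chain in size, and 2.30% of the 5136 genes had a lower one. Over all 15 other settings of the test, which include leaving out each library, the log2 fold change of Malt1 stayed between −0.78 and −0.62 and the adjusted p was at most 0.00737.

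Map3k7, which encodes TAK1, the kinase that activates IKK and MAP kinases, was the lowest gene of the chain. It had 6.97, 6.64 and 7.34 FPKM in WT, against 6.49, 6.61 and 7.08 in PGRN KO, with 711 to 894 fragments per library. The genotypes overlapped, and the interval of the log2 difference was −0.19 to 0.10 (adjusted p = 0.646).

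**Figure D2:**
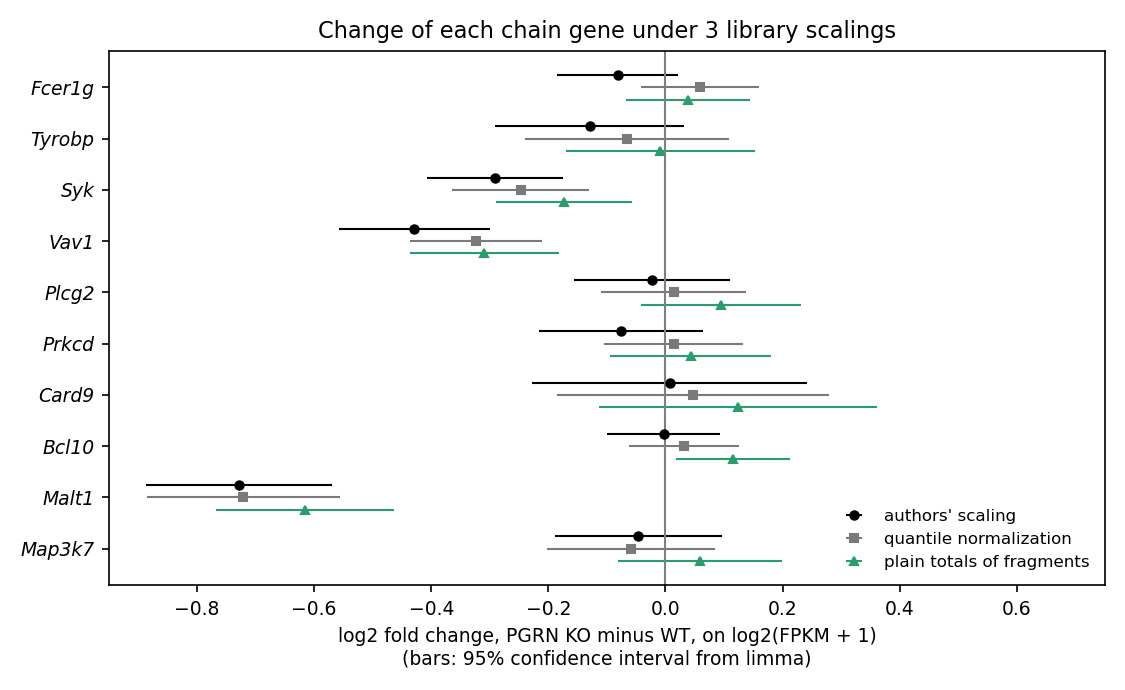
Log2 fold change of each chain gene, PGRN KO minus WT on log2(FPKM + 1), with its 95% confidence interval from limma, under the deposited scaling, quantile normalization and plain library totals. The intervals of Syk, Vav1 and Malt1 lie below 0 under all 3 scalings, while most other genes lie across 0 and shift to the right with plain totals.

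Over the whole chain, 4 genes did not overlap between genotypes, all lower in PGRN KO, against 19.6% of all genes tested that did not overlap and were lower (37.7% in either direction) and 32.6% of those at or above 5 FPKM (22.6% were higher). The median log2 fold change of the chain was −0.08, beside 0.0026 for all genes tested. Among the 5136 genes at or above 5 FPKM the median was −0.03. With plain library totals, which raise all genes of PGRN KO relative to WT, the chain median was 0.04 and that of the 5136 genes 0.08, and with quantile normalization both were −0.02. The number of chain genes below 0 moved with that shift, from 9 of 10 with the deposited scaling to 4 with plain totals and 5 with quantile normalization. Syk, Vav1, Malt1 and Tyrobp were below 0 in all 3. The 7 genes not called had log2 fold changes of −0.13 to 0.0069, and their interval bounds ran from −0.29 (Tyrobp) to 0.24 (Card9).

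The chain genes spanned a wide range of levels in both genotypes. The mean FPKM of Fcer1g was 258.2 times that of Map3k7 in WT and 253.3 times in PGRN KO, and the order in both was Fcer1g, Tyrobp, Vav1, Prkcd, Syk, Bcl10, Plcg2, Card9, Malt1 and Map3k7. In WT the neighbours Bcl10 and Plcg2 had overlapping libraries and all other neighbours were apart. In PGRN KO, Bcl10 and Plcg2 were apart, while Syk, which is above Bcl10 in every WT library, overlapped with it.

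Ratios of linked chain genes within a library do not depend on how libraries are scaled. Of 10 ratios, 6 did not overlap between genotypes, and all 6 hold Syk or Malt1. Most of the 10 hold Syk or Malt1, and both genes were already called lower in these libraries. The count of 6 was therefore largely set by which ratios were chosen. Syk over Tyrobp overlapped, and so did every ratio that holds neither gene. No share of ratios over other gene pairs is given for comparison. Of the 5136 genes at or above 5 FPKM, 55.2% did not overlap by themselves, in either direction. By an exact two-sided permutation test each of the 6 had p = 0.1, the smallest that 3 libraries against 3 can give, and an adjusted p of 0.167 over the 10 ratios, so none could pass the threshold.

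For the complex, Malt1 over Bcl10 was 0.462, 0.436 and 0.503 in WT and 0.294, 0.253 and 0.274 in PGRN KO, so every PGRN KO library held less Malt1 for its Bcl10 (log2 difference −0.77). Malt1 over Card9 went the same way, from a mean of 0.729 to 0.424. Map3k7 over Malt1 went the other way, from 0.332 to 0.547 (log2 difference 0.72). Bcl10 over Card9 stayed near its WT value, 1.56 and 1.55, with overlapping libraries (p = 0.8, exact permutation).

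Around Syk the differences were smaller. Plcg2 over Syk was 0.800, 0.784 and 0.743 in WT and 0.930, 0.947 and 0.935 in PGRN KO, a log2 difference of 0.27 with no overlap. Vav1 over Syk was 2.64, 2.71 and 2.67 in WT and 2.48, 2.39 and 2.44 in PGRN KO, so Vav1 was lower even for its Syk (log2 difference −0.14). Syk over Fcer1g was lower in every PGRN KO library (0.0308 in WT, 0.0265 in PGRN KO), whereas Syk over Tyrobp overlapped (p = 0.2, exact permutation), as did Fcer1g over Tyrobp (p = 0.6) and Card9 over Prkcd (p = 0.4).

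**Figure D3:**
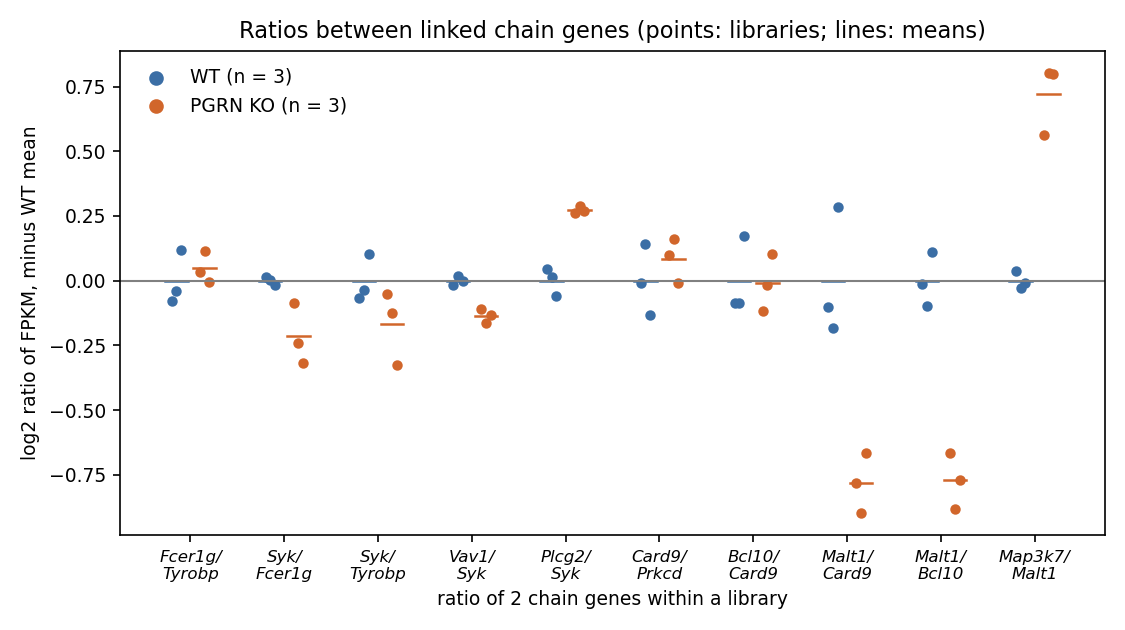
Log2 ratio of 2 chain genes within each library, minus the mean of the 3 WT libraries, with points for libraries and lines for means of WT and PGRN KO. The ratios with Malt1 lie 0.72 to 0.78 from the WT mean in size and do not overlap, while Bcl10 over Card9 and Fcer1g over Tyrobp do.

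In 5 gene families that hold chain genes, the chain genes were the main members in these cells. Syk made up 99.8% to 100% of the summed FPKM of Syk and Zap70, its T cell relative, and Plcg2 made up 99.5% to 99.7% of that of Plcg1 and Plcg2. Vav1 made up 92.8% to 94.9% of the VAV genes, with Vav3 at 5.01% to 7.01% and Vav2 at 0.0831% to 0.193%. Prkcd held 84.9% to 87.2% of 8 protein kinase C genes, followed by Prkcb with 6.39% to 8.50%. Fcer1g (55.6% to 59.0%) and Tyrobp (39.8% to 43.1%) shared the ITAM adaptor level almost entirely. Hcst, which encodes the adaptor DAP10, held 1.09% to 1.41%, and the B cell chains Cd79a and Cd79b were low and called higher in PGRN KO beside the B cell markers above; the call of Cd79a was lost without PGRN KO replicate 5 (adjusted p = 0.115) and without 3 other libraries (WT replicates 1 and 3, PGRN KO replicate 6).

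**Figure D4:**
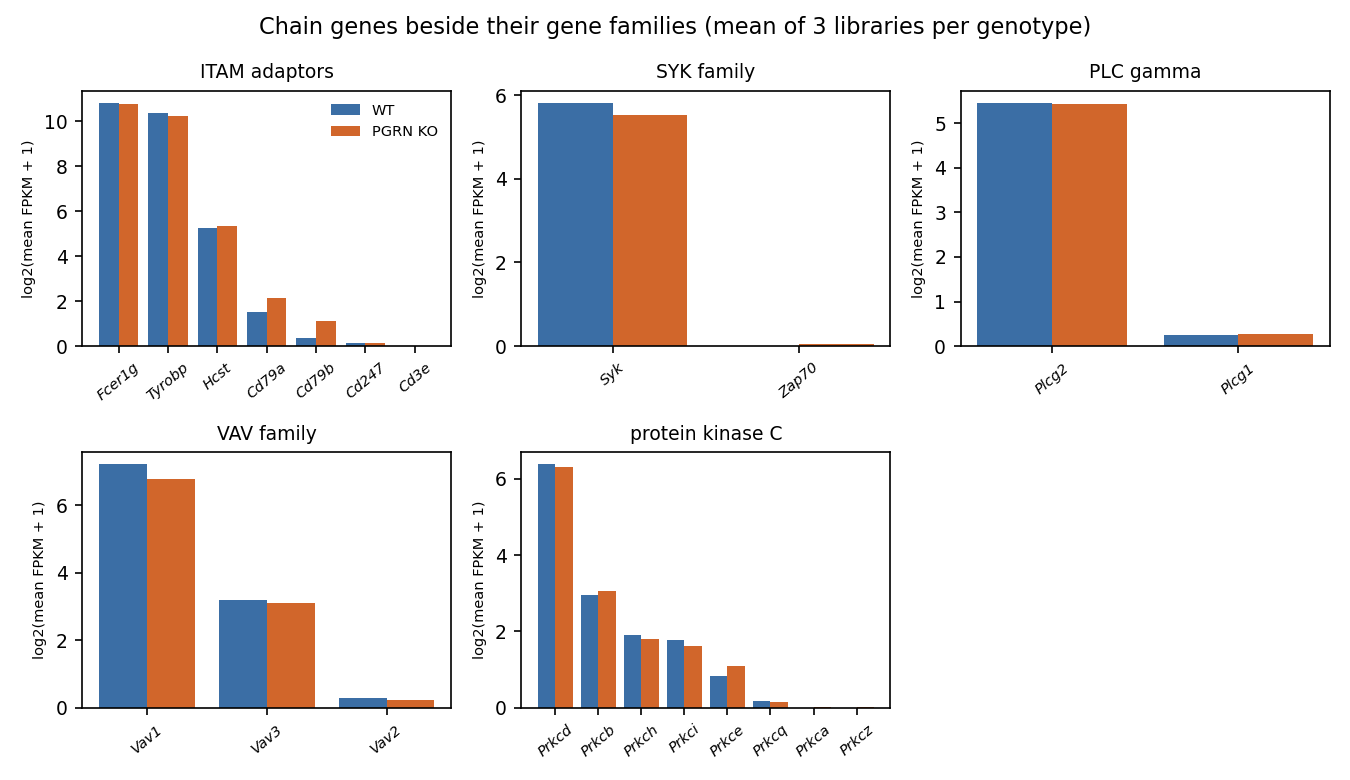
Mean FPKM over 3 libraries per genotype, as log2(mean FPKM + 1), for the members of 5 gene families that hold a chain gene. In each panel the tallest bars are chain genes, and the WT and PGRN KO bars of the minor members are low.

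The receptors that feed the chain were lower in PGRN KO. All 4 tested, Clec7a (Dectin-1), Clec4n (Dectin-2), Clec4d (MCL) and Clec4e (Mincle), were called, with a median log2 fold change of −0.52 and single values of −0.62, −0.79, −0.41 and −0.27. The call of Clec4e was lost without PGRN KO replicates 4 or 5 or any single WT replicate (largest adjusted p = 0.0981, without WT replicate 3). With all libraries kept, Clec4e also lost the call with eBayes without trend (limma adjusted p = 0.0587) and with no filter (limma adjusted p = 0.0739). The call of Clec4d was lost with quantile normalization (adjusted p = 0.115). Of 6 tested Src family kinases, Fyn (−0.69) and Lyn (−0.23) were lower (list median −0.13). Fyn was at a low level, with means of 2.97 FPKM in WT and 1.46 in PGRN KO, against 112 and 94.8 for Lyn. Lyn was lost without PGRN KO replicate 5 (adjusted p = 0.0651), without WT replicate 2, with plain totals, with quantile normalization and with voom.

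In the other pathway genes, chosen as lists around the chain, 26 of 126 tested were called lower (20.6%) and 13 higher (10.3%), with a median of −0.07. Of all genes tested, 9.95% were called lower and 7.94% higher, and of genes at or above 5 FPKM 20.1% and 13.1%. The 126 genes include some below 5 FPKM, so the second pair of shares is from an unlike set. The counts fell with single libraries left out. They were 13 and 4 without WT replicate 2 and 15 and 3 without PGRN KO replicate 5. Without WT replicate 1 they were 16 and 5, and without WT replicate 3 they were 17 and 7. Calls over all genes tested fell too, from 1473 lower and 1175 higher. They were 856 and 600 without WT replicate 2 and 804 and 581 without PGRN KO replicate 5. Without WT replicate 1 they were 987 and 695, and without WT replicate 3 they were 1051 and 698. With plain totals the pathway counts were 16 and 21, beside 933 and 2147 over all genes tested.

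Of 14 SYK substrates and scaffolds tested, 5 were lower and 2 higher (median −0.05). Pik3ap1, an adaptor for PI3 kinase, had a log2 fold change of −0.64, Sh3bp2, an adaptor of SYK and VAV, −0.48, and Gab2, a docking protein, −0.44. Grb2 (−0.33) was called, but not without PGRN KO replicates 5 or 6 or WT replicates 1 or 2 (largest adjusted p = 0.0852). Brakes on SYK signalling moved both ways, with 6 of 20 lower and 2 higher (median −0.10). The inhibitory receptors Lilrb4a (−0.65) and Pirb (−0.40) fell and the adaptor Dok2 rose (0.49). Clec12a, an inhibitory lectin receptor, was called higher (0.39) but not without WT replicates 1 or 2 or PGRN KO replicate 5 (largest adjusted p = 0.0620). Ptpn6, the phosphatase SHP-1 and the most abundant brake, was not called (−0.10).

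Downstream, Ripk2 (−0.35) was the 1 gene called among 7 other CARD9 regulators, and Tnfaip3 (−0.51), which encodes the A20 protein that MALT1 cleaves, was the 1 called among 14 MALT1 partners and substrates (medians −0.07 and −0.11). The call of Tnfaip3 was lost without PGRN KO replicate 5 (adjusted p = 0.0572) or WT replicates 2 or 3. By limma 0 of 5 other TAK1 partners were called, and voom called 0, while 1, Tab2, which has the highest level, had an unadjusted p under 0.05 (−0.11). In IKK and NF-kB, 4 of 11 were lower (median −0.13), with Ikbkg, the NEMO subunit, at −0.59. Nfkbia (−0.26) and Nfkbie (−0.32) lost the call without any 1 library other than PGRN KO replicate 4, and Rel (−0.32) lost it without any 1 of the 6 libraries, with largest adjusted p of 0.153, 0.112 and 0.145. The 10 tested MAP kinases (median 0.01) had Map2k3 lower (−0.26) and Mapk14 (0.25) and Mapk3 (0.20) higher, of which both were lost without WT replicate 2 (adjusted p = 0.0553 and 0.0864) or PGRN KO replicate 5, and Mapk3 also without WT replicates 1 or 3. Calcineurin and NFAT genes had Ppp3ca (0.34) and Orai1 (0.17) higher out of 10 (median 0.09), and Orai1 was lost without any 1 library other than PGRN KO replicate 6 (largest adjusted p = 0.139).

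The 13 tested other receptors linked to FcR gamma or DAP12 gave 2 lower and 3 higher (median −0.07). Cd300lb (−0.50) and Cd300ld (−0.37) were lower, and Clec5a (0.31) and Trem3 (0.26), both DAP12 partners, were higher. Each of these 4 calls was lost without PGRN KO replicate 5 or WT replicates 2 or 3, with adjusted p of at most 0.0702, 0.0686, 0.0767 and 0.0929 over the libraries left out. Cd300lb and Clec5a were also lost without WT replicate 1, and Trem3 without PGRN KO replicates 4 or 6. Itgb2, the most abundant of the list, was not called (0.03).

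**Figure D5:**
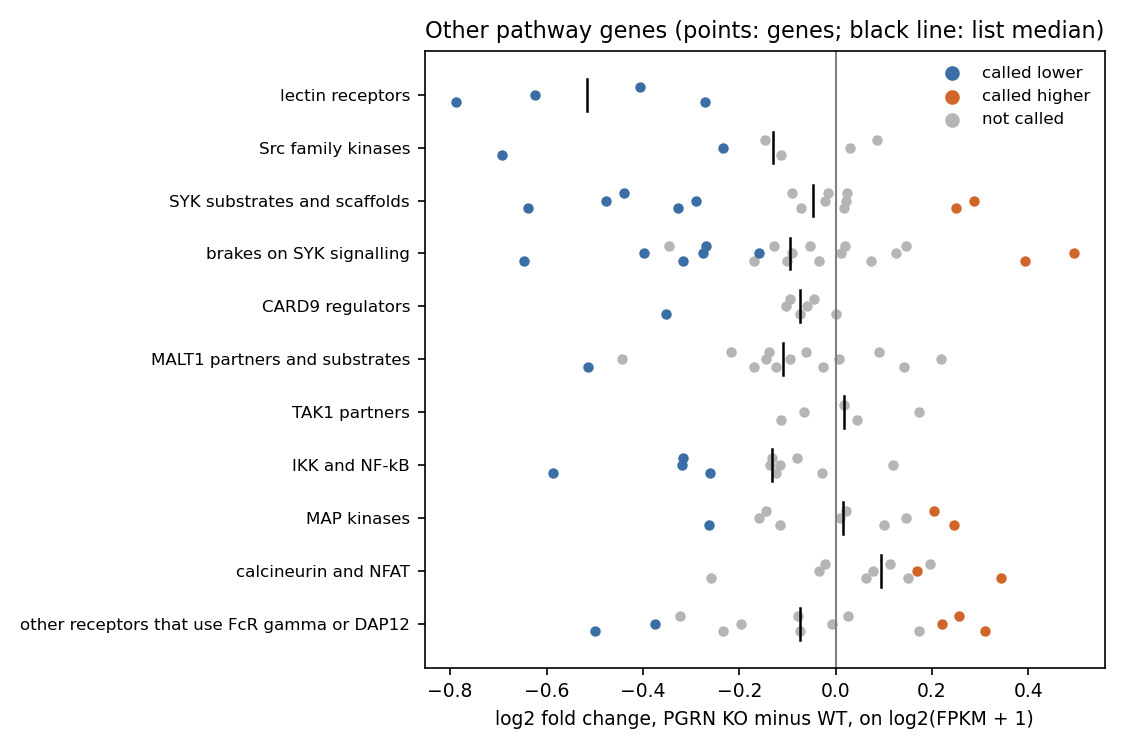
Log2 fold change, PGRN KO minus WT on log2(FPKM + 1), of the tested genes of 11 pathway lists, with chain genes and the members of their gene families not drawn, grouped by list, with the call in colour and the list median as a black line. The lectin receptors are all lower, while each of the other lists drawn holds genes on both sides of 0.

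Positions of the chain genes on GRCm38 are the same in the deposited table and in GENCODE M21 for 9 of 10, and the gene that differs is Malt1. Syk spans chr13:52583173-52648792 and Vav1 chr17:57279100-57328031, both on the plus strand, and Malt1 is on chromosome 18. The exonic lengths by which fragments are divided run from 667 bases for Tyrobp to 11735 for Malt1. Genes on the opposite strand overlap Plcg2, Card9 and Map3k7, and no source used here states the strand setting of the counting. Their fragments were few: Gm13562 held 0.425% of those of Card9, Gm26254 0.149% of those of Map3k7, and Gm27361 and Gm11926 held 0. No overlap was found for Syk, Vav1 or Malt1.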

How the data were processed

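Total RNA of bone marrow neutrophils, 3 WT and 3 PGRN KO cultures, was made into libraries with a NEBNext Ultra kit. The authors deposited FPKM values, normalized for gene length and library size. Their submitters' processing notes name HISAT2 2.0.5, featureCounts 1.5.0-p3, mm10 and GRCm38, while the study's methods name other tools and versions. Multiplied by gene length, 100% of the values came out as whole fragments within 0.05. The library sizes behind the deposited FPKM are not the plain totals: totals were 1.03 to 1.04 times the size used in WT and 0.946 to 0.957 times in PGRN KO, which lowers PGRN KO relative to plain totals. Fragment numbers cover counting error only.

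Genes with a mean FPKM under 0.1 were left out, and log2(FPKM + 1) of the rest was compared with limma 3.58.1 (lmFit, eBayes with trend) in R 4.3.3, with two-sided p-values adjusted by Benjamini-Hochberg over 14807 genes. The pseudocount of 1 understates changes of low genes. Ratios were compared by an exact permutation test. Tables and figures were made with Python 3.11.15, pandas 2.3.3, scipy 1.17.1 and matplotlib 3.10.9. The fit was also run on simulated counts as a check of the code. Those counts had a fixed spread, few changed genes and no scaling shift between genotypes. They therefore do not test the fit on data like these. Promoter sequences came from RefSeq, GRCm38.p6. The members and lists were chosen with earlier results of these data known. Named genes are the chain genes, Grn, the 4 lectin receptors, the families, genes overlapping a chain gene and, per list, the most abundant gene and up to 4 called genes of mean FPKM of at least 1 with the largest change. Some genes that this rule names, and the results that need them, are not reported here.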

Additional observations from a re-analysis of the deposited data

How the results depend on the processing

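Syk, Vav1 and Malt1 were called lower, and 0 chain genes were called higher, in all 15 alternatives (pseudocounts 0.1 and 0.5, 2 filters, 3 scalings, eBayes without trend, voom on recovered fragments and each of 6 libraries left out), and with libraries left out the counts ranged from 3 to 3 and from 0 to 0. The log2 fold change was −0.33 to −0.17 for Syk, −0.48 to −0.31 for Vav1 and −0.78 to −0.62 for Malt1. Median-of-ratios scaling multiplies every library by the same factor, which moved the calls over all genes slightly, from 1175 higher and 1473 lower to 1178 and 1477. The ratios that did not overlap numbered 6 with FPKM + 1 and 6 to 7 with libraries left out. No paired analysis was possible because the genotypes share no replicate number.

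For the other pathway genes, 26 lower and 13 higher became 16 and 21 with plain totals and 25 and 29 with voom. Over all genes tested, 1473 lower and 1175 higher became 933 and 2147 with plain totals and 1252 and 2984 with voom. With single libraries left out the lower pathway count was 13 to 25 and the higher 3 to 11. Over all genes tested these ranges were 804 to 1282 and 581 to 947. Plain totals moved the median of all genes from 0.0026 to 0.07 and voom to 0.12, so changes are relative to that shift. Log2 fold changes that turned sign with plain totals were Bcl10 0.11, Fcer1g 0.039, Map3k7 0.059, Plcg2 0.094, Prkcd 0.043, Ptpn6 0.018 and Tab2 0.0020, and with voom Bcl10 0.12, Fcer1g 0.039, Map3k7 0.068, Plcg2 0.096, Prkcd 0.043, Ptpn6 0.019 and Tab2 0.0022. With quantile normalization, Bcl10 was 0.032, Fcer1g 0.059, Plcg2 0.014 and Prkcd 0.014. With single libraries left out, Card9 ranged from −0.091 (without WT replicate 3) to 0.074, Plcg2 from −0.063 to 0.014 (without PGRN KO replicate 6), Itgb2 from −0.0056 (without PGRN KO replicate 6) to 0.044 and Bcl10 from −0.017 to 0.023 (without WT replicate 2), and Card9 was −0.044 without PGRN KO replicate 4. None of these was a call by limma in the main setting, and the cause was not tested. With eBayes without trend, the calls of Clec4e, Mapk3, Nfkbia, Nfkbie, Orai1 and Rel were lost. With no filter, 6 named genes lost the call, among them Clec4e, Cd79a and Grb2. With 3 libraries a group, the ratios cannot reach a p under 0.1, and an uncalled chain gene is not shown to be unchanged.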
